A study of Homo sapiens with 10 samples.

Results

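NEUROG1, NEUROG2, NEUROD1, NEUROD4, NHLH1, NHLH2 and INSM1 form a small group of transcription factor genes that neural precursors switch on around the time they leave the cell cycle. They were taken from the deposited expression table by gene symbol, and all 7 were found among its 42335 symbols. Expression was measured by bulk RNA sequencing in 10 libraries of H9 cells, an established human embryonic stem cell line, along a differentiation towards neural cells. The study compared wild-type H9 cells, called Ctrl, with H9 cells whose genotype is given as SOX1-OT V1 PAKI, called V1PAKI, to examine gene expression in both over time. SOX1-OT is a noncoding gene next to SOX1, which encodes a transcription factor of early neural precursors. The labels neither spell out PAKI nor say whether the V1PAKI cells are 1 clone.

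Each line gave 1 library at each of 5 stages. The stages are d0, labelled as stem cells, and d4, d10, d16D and d16V, all labelled as neural precursors derived from them. Both lines went through the same protocol: suspension culture as embryoid bodies, a neural medium with N2 supplement and heparin from day 4, and attachment at day 7. The protocol also describes a ventral telencephalon arm that received Sonic hedgehog protein and the agonist SAG from day 10. The letters D and V are not explained in the labels. NKX2-2, a homeobox gene of the hedgehog-exposed ventral neural tube, reached 23.1 FPKM (Ctrl) and 22.6 FPKM (V1PAKI) at d16V, against 0 and 0.0232 FPKM at d16D.

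FPKM counts read fragments corrected for both transcript length and sequencing depth, so levels of different genes can be set side by side. The table holds no read counts, so the depth behind each value is unknown and no counting interval can be given. FPKM summed to between 200509 and 256270 per library. The d4 libraries carry the precursor label, but their 8 pluripotency markers summed to 1604 FPKM in Ctrl and 1625 FPKM in V1PAKI, against 1486 and 1289 FPKM at d0. The 12 neural progenitor genes summed to 239 FPKM in Ctrl and 222 FPKM in V1PAKI at d4, against 136 and 203 FPKM at d0. On the average of the lines, 7 of the 12 were higher at d4 than at d0 and 5 were lower. Among them, SOX1 was at 0.0605 and 0.0613 FPKM and PAX6 at 0.378 and 0.0743 FPKM at d4. Ctrl d10 and V1PAKI d16D stood apart by mesenchyme and mesoderm markers. By endoderm and yolk sac genes V1PAKI d16D alone did, at 2463 FPKM against 21.4 to 433 FPKM elsewhere from d10 on. The 10 mesenchyme and mesoderm genes summed to 922 FPKM in Ctrl d10 and 1138 FPKM in V1PAKI d16D, against 14.1 to 276 FPKM in the other 4 libraries from d10 on. Calls by the tests below, and the members' line values, are also given without these libraries. The d16D difference between the lines is 1 pair of libraries and cannot be.

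As background, the neurogenins NEUROG1 and NEUROG2 are proneural basic helix-loop-helix (bHLH) factors: they bind E-box sequences as partners of widely expressed E proteins, start neuronal differentiation and, by raising Notch ligands, hold neighbouring cells in the precursor state through HES genes. NEUROD1 and NEUROD4 are bHLH factors that act after the neurogenins and drive differentiation, and NHLH1 and NHLH2 are related bHLH factors of young neurons. INSM1 is a zinc finger repressor, not a bHLH factor, which is transiently expressed in neuronal and endocrine precursors and recruits corepressors. In the forebrain, neurogenins mark dorsal precursors that make glutamatergic neurons.

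In the GENCODE annotation of GRCh38, all 7 are protein-coding genes. NEUROG1 (chr5:135534282-135535949, minus strand) and INSM1 (chr20:20368121-20370949, plus strand) have a single exon. NEUROG2 (chr4:112513516-112516172, minus strand) overlaps the gene AC023886.1 on the other strand, and NEUROD1 (chr2:181673088-181680876, minus strand) overlaps CERKL on its own strand. NEUROD4 lies at chr12:55019945-55030014 on the plus strand, NHLH1 at chr1:160367067-160372848 on the plus strand and NHLH2 at chr1:115836377-115843917 on the minus strand. Whether strand was used is not given in the sources used here. Reads of NEUROG2 and AC023886.1, and of NEUROD1 and CERKL, cannot be told apart with certainty.

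The RefSeq promoter table (GRCh38.p14) holds 7 start sites for 6 of these genes, 2 of them for NHLH2, and no entry for INSM1. The 250 bases before the start are shown for the neurogenin pair and the NHLH pair, because within each pair the members differed in their levels, and all are written 5′ to 3′ on the strand of the gene. Capitals mark the E-boxes CAGATG and CAGCTG, 2 forms of the general E-box CANNTG.
NEUROG1: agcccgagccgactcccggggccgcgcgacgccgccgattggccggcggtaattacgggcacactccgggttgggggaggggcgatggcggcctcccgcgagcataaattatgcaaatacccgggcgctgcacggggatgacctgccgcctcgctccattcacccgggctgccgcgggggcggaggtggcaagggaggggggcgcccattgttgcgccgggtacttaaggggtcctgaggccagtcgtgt
NEUROG2: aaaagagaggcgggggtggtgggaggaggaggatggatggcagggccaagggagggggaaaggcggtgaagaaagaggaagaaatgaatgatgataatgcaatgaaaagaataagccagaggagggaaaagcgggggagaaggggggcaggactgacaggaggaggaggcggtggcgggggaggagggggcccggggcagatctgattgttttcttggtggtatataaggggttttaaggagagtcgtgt
NHLH1: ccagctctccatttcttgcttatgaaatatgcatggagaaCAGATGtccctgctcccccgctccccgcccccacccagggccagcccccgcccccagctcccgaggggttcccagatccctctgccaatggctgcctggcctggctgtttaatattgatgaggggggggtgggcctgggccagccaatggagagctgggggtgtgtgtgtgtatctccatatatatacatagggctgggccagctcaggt
NHLH2 downstream start: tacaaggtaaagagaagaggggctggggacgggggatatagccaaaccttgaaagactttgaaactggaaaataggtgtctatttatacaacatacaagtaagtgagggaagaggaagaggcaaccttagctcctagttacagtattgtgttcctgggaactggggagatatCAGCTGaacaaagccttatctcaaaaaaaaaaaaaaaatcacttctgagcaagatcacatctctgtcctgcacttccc
NHLH2 upstream start: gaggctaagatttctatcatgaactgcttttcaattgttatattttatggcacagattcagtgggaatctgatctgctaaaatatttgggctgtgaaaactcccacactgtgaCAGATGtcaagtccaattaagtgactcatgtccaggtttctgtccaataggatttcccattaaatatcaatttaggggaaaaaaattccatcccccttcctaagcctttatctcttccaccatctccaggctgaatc
These windows are chr5:135535965-135536214 for NEUROG1 and chr4:112516181-112516430 for NEUROG2, both on the minus strand, and chr1:160366821-160367070 on the plus strand for NHLH1. For NHLH2 they are chr1:115840704-115840953 and chr1:115841127-115841376, both on the minus strand. CAGATG, searched on both strands, began 210 bases before the start of NHLH1 and 137 bases before the upstream start of NHLH2, so it stood in 2 of the 7 windows, against 12.2% of all 35116 RefSeq promoter windows of this length. CAGCTG was found in 2 of 7 windows, at NEUROD4, 46 bases before the start, and at the downstream start of NHLH2, 78 bases before it, against 14.0% of all windows. Any CANNTG, which includes both forms, stood in 4 of 7 windows against 61.8% of all, and the windows of NEUROG1, NEUROG2 and NEUROD1 held none. The N-box CACNAG, bound by HES repressors, was in 0 of 7 windows against 32.0%. A match describes letters in this window and is not a measured binding site.

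Up to d10 these genes were close to silent, and at day 16 most were on. NEUROG1 stood at 0.0512, 0.0182 and 0.253 FPKM in Ctrl at d0, d4 and d10 and was listed at 0 in all 3 V1PAKI libraries of these days. At day 16 it reached 6.74 FPKM in Ctrl d16D and 3.76 FPKM in V1PAKI d16D, and 0.952 and 0.317 FPKM at d16V. Its 4 day 16 values lay above all 6 earlier ones, but the lowest, in V1PAKI d16V, was only 1.26 times the highest earlier one. NEUROG2, its closest relative among the 7, was listed at 0 in 3 of the 6 earlier libraries and was at most 0.112 FPKM in the others. It stood at 1.89 FPKM in Ctrl and 2.17 FPKM in V1PAKI at d16D, and at 1.26 and 0.512 FPKM at d16V. The groups did not overlap, and the lowest day 16 value was 4.57 times the highest earlier one.

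NEUROD1, the factor that acts after the neurogenins, was listed at 0 in 5 of the 6 earlier libraries and at 0.0322 FPKM in V1PAKI d0. At day 16 it was at 1.67 FPKM in Ctrl d16D, 2.78 in V1PAKI d16D, 1.13 in Ctrl d16V and 0.571 in V1PAKI d16V. The day 16 libraries again all lay above the earlier ones. NEUROD4 followed the same course at a lower level, with at most 0.0517 FPKM before day 16. It then stood at 0.584 FPKM in Ctrl d16D, 0.972 in V1PAKI d16D, 0.688 in Ctrl d16V and 0.468 in V1PAKI d16V. It never reached 1 FPKM, so it was described but not tested.

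NHLH1 and INSM1 were the most abundant of the 7 at day 16. NHLH1 ranged from 0.0779 to 0.382 FPKM up to d10 and then stood at 9.88 FPKM in Ctrl d16D, 5.88 in V1PAKI d16D, 5.31 in Ctrl d16V and 2.82 in V1PAKI d16V. INSM1 was the highest of the 7 at d10 in Ctrl. It was at 0.126, 0.369 and 0.885 FPKM at d0, d4 and d10 in Ctrl and at 0.0977, 0.232 and 0.173 FPKM in V1PAKI. At day 16 it stood at 10.7 FPKM in Ctrl d16D, 4.09 in V1PAKI d16D, 11.0 in Ctrl d16V and 6.69 in V1PAKI d16V. The lowest day 16 library was 7.37 times the highest earlier one for NHLH1 and 4.62 times for INSM1, so neither overlapped.

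NHLH2 did not share this course. It stood at 0.452, 0.214 and 0.231 FPKM in Ctrl at d0, d4 and d10 and at 0.859, 0.627 and 0.217 FPKM in V1PAKI. At day 16 it was at 0.416 FPKM in Ctrl d16D, 0.631 in V1PAKI d16D, 1.47 in Ctrl d16V and 0.683 in V1PAKI d16V. Its day 16 and earlier values overlapped, and V1PAKI d0 was higher than 3 of the 4 day 16 libraries. Thus 6 of the 7 genes, all but NHLH2, had every day 16 library above every earlier one, a separation found in 6.83% of all 42335 symbols. It was found in 10.5% of the 15779 genes that reached 1 FPKM in 2 or more libraries, as NEUROD4 and NHLH2 did not. In whole tissue or culture RNA, fewer cells of a type and less RNA per cell cannot be told apart, so these values do not say how many cells expressed a gene.

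**Figure D1:**
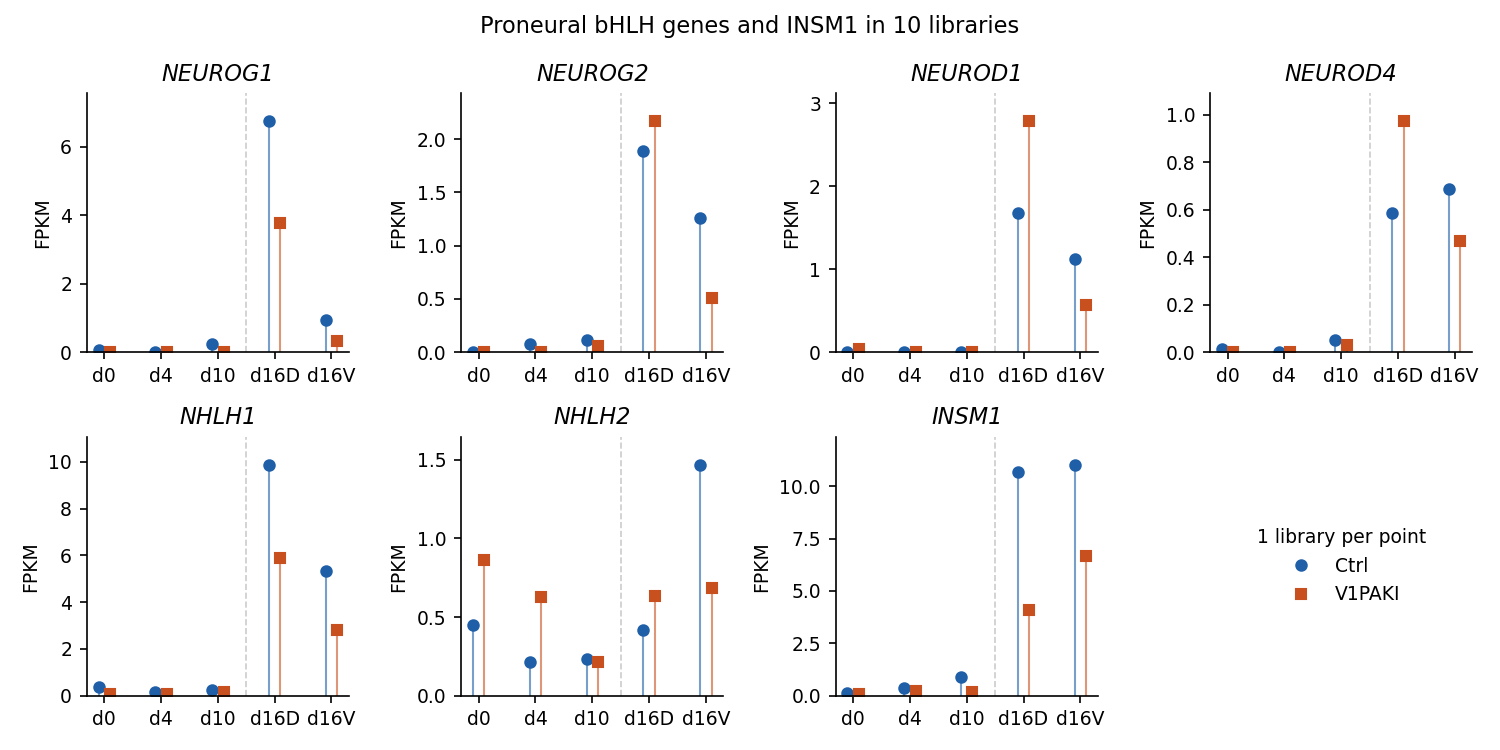
FPKM (y axis, linear, scaled per gene) of each gene at the 5 stages (x axis), with 1 point per library, circles for Ctrl and squares for V1PAKI, and a dashed line between day 10 and day 16. All genes but NHLH2 have their 4 day 16 points above the 6 earlier ones, and NEUROG1 is the one with the largest drop from d16D to d16V.

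Differences between stages were tested with limma on log2(FPKM + 1) over all genes, with stage and line as terms. The mean difference between the lines is thus fitted, and the error is how far that difference varies from stage to stage. The scale understates changes of low genes. Nothing in the labels marks separate cultures, so a p-value here measures the spread between these libraries. From d0 to d4 and from d4 to d10, 0 of the 5 members tested passed an adjusted p of 0.05, and 0 had an unadjusted p under 0.05 (background in either direction, 0.818% and 1.44% of 15779 genes at the adjusted threshold and 11.9% and 15.2% at the unadjusted one). NEUROD4 and NHLH2 did not pass the filter of 1 FPKM in 2 libraries, and the other 5 passed it only through day 16 libraries, NEUROG1 only through d16D. A gene that enters this way had to be higher there, so the number of the 5 that passed is a description and no support.

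From d10 to d16D all 5 tested genes rose (background higher, 0.551%). NHLH1 rose by 2.84 on the log2 scale (SE 0.24, adjusted p = 0.00465), NEUROG1 by 2.44 (SE 0.23, adjusted p = 0.00654) and INSM1 by 2.38 (SE 0.30, adjusted p = 0.0156). NEUROD1 rose by 1.67 (SE 0.25, adjusted p = 0.0313) and NEUROG2 by 1.48 (SE 0.23, adjusted p = 0.0353). NHLH1 passed in every refit that left out 1 library. Without Ctrl d10 or without V1PAKI d10 it was the 1 member left, with INSM1 at an adjusted p of 0.0673 and 0.112. NEUROD1 and NEUROG2 did not pass without Ctrl d0, Ctrl d4, V1PAKI d0 or V1PAKI d4, NEUROG2 and INSM1 did not pass without Ctrl d16D, and NEUROG2 did not pass without V1PAKI d16D. With no filter NHLH1 alone passed, with adjusted p values of 0.0545 for NEUROG1, 0.0864 for INSM1 and 0.0987 for NEUROD1 and NEUROG2. INSM1 missed with the filter at 5 FPKM (0.0533) and NEUROG2 with a pseudocount of 0.1 (0.0661).

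From d10 to d16V, INSM1 rose by 2.69 (SE 0.30, adjusted p = 0.0103) and NHLH1 by 2.02 (SE 0.24, adjusted p = 0.0117), 2 of the 5 tested (background higher, 0.52%). This comparison and the one with d16D share the d10 libraries. NEUROD1 differed by 0.87 (adjusted p = 0.136), NEUROG2 by 0.77 (adjusted p = 0.145) and NEUROG1 by 0.52 (adjusted p = 0.269), which did not pass. Neither INSM1 nor NHLH1 passed without Ctrl d10, V1PAKI d10, Ctrl d16V or V1PAKI d16V, where the adjusted p lay between 0.0531 and 0.132. Neither passed with no filter (adjusted p = 0.0663 and 0.0642), nor NHLH1 with the filter at 5 FPKM (0.0877).

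The arms differed most for NEUROG1. It was 7.08 times as high at d16D as at d16V in Ctrl and 11.8 times as high in V1PAKI, and it was the 1 member past the adjusted threshold between the arms, lower by 1.92 at d16V on the log2 scale (SE 0.23, adjusted p = 0.0231; background lower 0.165%, higher 0.196%). NEUROG1 passed the filter through the d16D libraries alone, the arm where it is high, so this call is a description and no support. Of 17 alternatives, 5 kept that call and 12 did not. Among the refits that left out 1 library, it was kept only without Ctrl d16D or without V1PAKI d16D. Without any 1 of the other 8 libraries its adjusted p lay between 0.0528 and 0.285. It was also lost with a pseudocount of 0.1 (adjusted p = 0.287), on TPM (0.0916), with no filter (0.0786) and with a GC and length trend removed (0.0505). At an unadjusted limma p under 0.05, 4 of the 5 tested members were lower at d16V, all but INSM1, against 2.79% of all genes. NEUROG2 and NEUROD1 reached 1 FPKM in both d16D libraries but, at d16V, in Ctrl alone, so this count is a description too. NEUROG1 marks dorsal precursors in the forebrain, as does the homeobox gene EMX2. EMX2 stood at 24.2 FPKM in Ctrl d16D and 12.3 in V1PAKI d16D, and at 1.64 and 1.40 FPKM at d16V. Of the tested genes outside the group, EMX2 had the values most like those of NEUROG1 over these libraries (r = 0.989). Its order between the arms is therefore a description and no separate support.

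None of the other 4 tested members passed between the arms, and NEUROD4 and NHLH2 were not tested. NHLH1 was 1.86 times as high at d16D as at d16V in Ctrl and 2.09 times in V1PAKI (log2 difference -0.82, SE 0.24, adjusted p = 0.465). NEUROG2 was 1.50 times as high at d16D in Ctrl and 4.24 times in V1PAKI, and NEUROD1 was 1.49 and 4.88 times as high. INSM1 leaned the other way in V1PAKI, at 1.64 times as high at d16V, and was nearly level in Ctrl, at 1.03 times (log2 difference 0.32, adjusted p = 1.0). NHLH2 was 3.53 times as high at d16V in Ctrl and 1.08 times in V1PAKI. NEUROD4 was 0.849 times as high at d16D as at d16V in Ctrl and 2.08 times in V1PAKI. Ratios within the group, each from 1 library and with no test, also differed by arm. NEUROG1 exceeded NEUROG2 per length by 3.56 times in Ctrl d16D and 1.73 times in V1PAKI d16D, and stood at 0.756 and 0.62 times NEUROG2 at d16V. Those d16V ratios rest on low values, NEUROG1 at 0.952 and 0.317 FPKM and NEUROG2 at 1.26 and 0.512 FPKM. NHLH1 exceeded NHLH2 in all 4 day 16 libraries, by 23.8 and 9.32 times at d16D and by 3.62 and 4.13 times at d16V. NHLH2 was under 1 FPKM in all of these but Ctrl d16V.

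**Figure D2:**
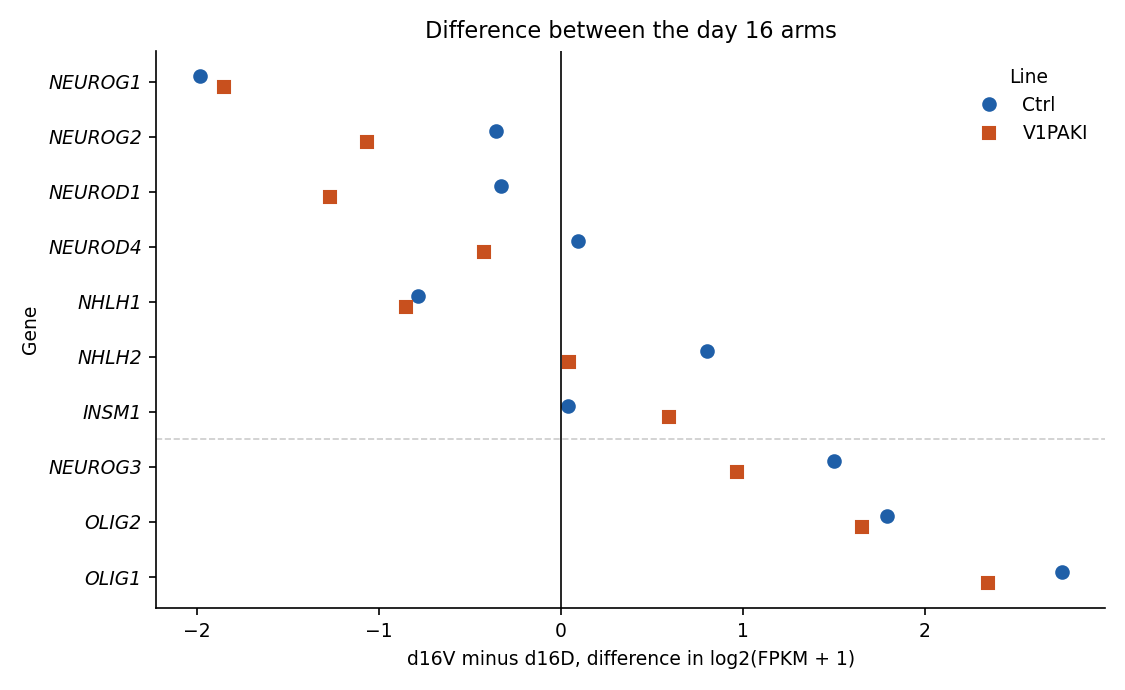
Difference between d16V and d16D in log2(FPKM + 1) (x axis) for the 7 genes, above the dashed line, and 3 other neural bHLH genes (y axis), with circles for Ctrl and squares for V1PAKI, 1 pair of libraries each. NEUROG1 lies lowest in both lines and OLIG1 highest, while INSM1 lies at or above 0.

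Among the other neural bHLH genes, 13 of 14 listed were in the table and 4 were tested, with medians of 0.71 from d10 to d16D and 1.81 from d10 to d16V, against 0.03 and 0.04 over all genes. OLIG1, a factor of ventral precursors and oligodendrocyte lineage cells, rose by 3.49 (SE 0.40, adjusted p = 0.0107) to d16V, and NEUROG3, best known from endocrine precursors, by 1.42 (SE 0.22, adjusted p = 0.038). Without Ctrl d10 neither passed (adjusted p = 0.101 and 0.102), and without V1PAKI d16D both did. With 1 library left out, OLIG1 passed in 7 of 10 refits and NEUROG3 in 2 of 10. At d16V, OLIG1 stood at 15.4 FPKM (Ctrl) and 8.24 FPKM (V1PAKI), against 1.44 and 0.814 FPKM at d16D. NEUROG3 stood at 2.34 and 1.15 FPKM at d16V against 0.18 and 0.0997 at d16D, and its difference between the arms did not pass (1.24, SE 0.22, adjusted p = 0.108). It reached 1 FPKM in the d16V libraries alone, so it entered the test through the group where it is high. NEUROD2, a later factor of the NEUROD family, was at most 0.0554 FPKM in the 10 libraries.

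Between the lines, the members were lower in V1PAKI at d16V and mixed at d16D, in single pairs of libraries with no test. At d16V all 7 were lower in V1PAKI, and so were 63.4% of the 14569 genes that reached 1 FPKM in 1 or both libraries. NEUROG1 and NEUROD4 did not reach it, which leaves 5 of 5 on the same basis. Ctrl was 3.0 times as high for NEUROG1, 2.46 times for NEUROG2, 1.97 times for NEUROD1, 1.88 times for NHLH1 and 1.65 times for INSM1. None was lower by 1 or more on the log2(FPKM + 1) scale, which 2.49% of genes were. With a pseudocount of 0.1 there were 3 such members, NEUROG1, NEUROG2 and NHLH2 (background, 5.73%), and on TPM 1, NEUROG1 (background, 4.59%). NEUROG1, under 1 FPKM in both libraries, is not among the genes of these backgrounds. On the same basis that leaves NEUROG2 and NHLH2 with the pseudocount of 0.1 and no member on TPM. At d16D, 3 of 7 were lower, or 3 of the 5 at 1 FPKM or more, with 58.9% of 15194 such genes lower. INSM1 was lower by 1.20 on the log2 scale, with Ctrl 2.62 times as high, and was the 1 member past a difference of 1 (background, 3.46%). NEUROG1 was 1.79 times and NHLH1 1.68 times as high in Ctrl at d16D, whereas V1PAKI was the higher line for NEUROD1, at 1.66 times, NEUROD4, at 1.66 times, NHLH2, at 1.52 times, and NEUROG2, at 1.15 times.

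INSM1, NHLH1 and NEUROG1 were lower in V1PAKI than in Ctrl at all 5 stages, NEUROG1 listed at 0 in V1PAKI at the first 3, and 2.6% of the 15779 tested genes had this order. Up to d10 INSM1, NHLH1 and NEUROG1 were at most 0.885, 0.382 and 0.253 FPKM in either line. Their order at these stages thus rests on low values. In the limma fit over the 5 stages, 0 of the 5 tested members passed (background lower, 0.019%, which is 3 genes). At an unadjusted p under 0.05, 2 of 5 were lower, against 1.45% of all genes. INSM1 differed by -0.54 (SE 0.19, adjusted p = 0.9998), NHLH1 by -0.39 (SE 0.15) and NEUROG1 by -0.34 (SE 0.15). With a pseudocount of 0.1 these values were -0.92, -0.77 and -0.96, and on TPM -0.78, -0.60 and -0.67. With the line effect fitted separately for day 16, 0 members and 0.0% of genes passed by limma in either direction, and 3 of 5 members were lower at an unadjusted p under 0.05, against 2.38% of all genes. Without Ctrl d10 the 5-stage values were -0.51 for INSM1, -0.45 for NHLH1 and -0.34 for NEUROG1, and without V1PAKI d16D they were -0.38, -0.32 and -0.25. The differences at day 16 were -0.92 for INSM1 (SE 0.26), -0.69 for NHLH1 (SE 0.21) and -0.63 for NEUROG1 (SE 0.20), all with an adjusted p of 1.0. NEUROG2 differed by -0.22 (SE 0.24). NEUROD1 differed by 0.03 (SE 0.26), a sign that turned with a pseudocount of 0.1 (-0.08) and on TPM (-0.01). The day 16 line effect minus the earlier one passed for 0 members and 0.0% of genes by limma, and at an unadjusted p under 0.05 for 0 members and 1.81% of genes. In the d16V pair alone, without V1PAKI d16D, the values were -0.65 for INSM1, -0.72 for NHLH1 and -0.57 for NEUROG1.

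**Figure D3:**
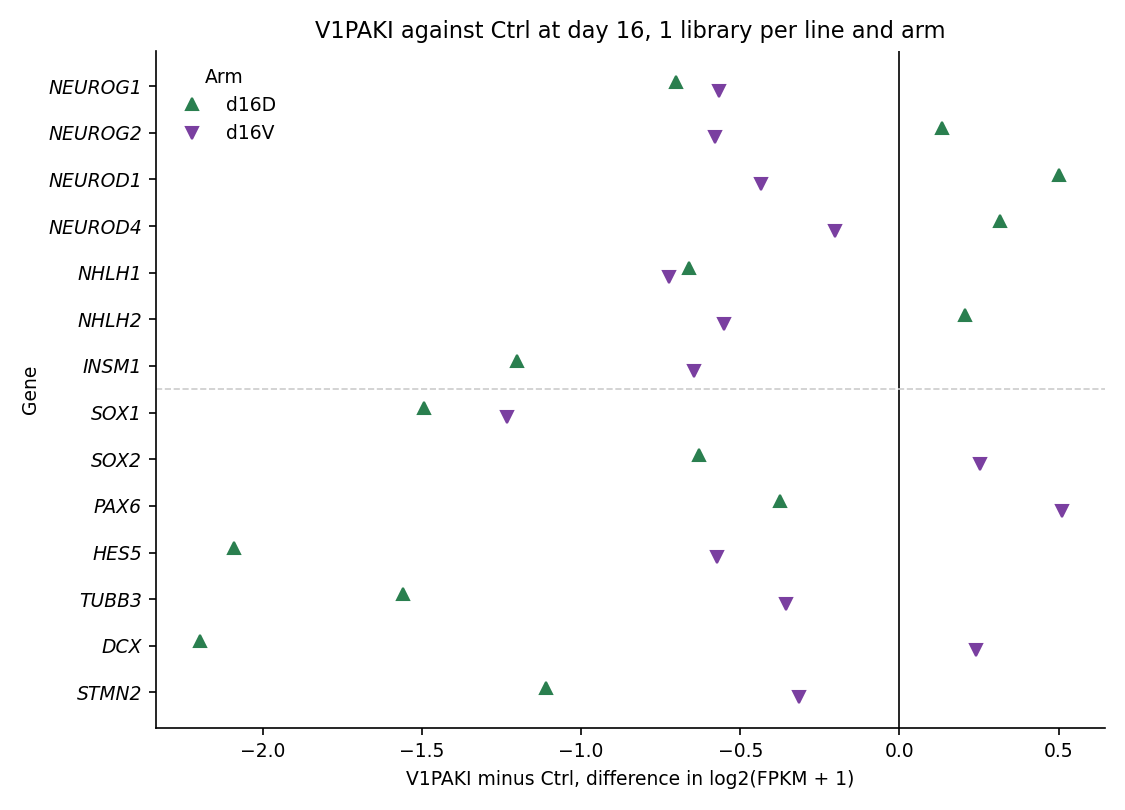
V1PAKI minus Ctrl in log2(FPKM + 1) (x axis) for the 7 genes, above the dashed line, and 7 precursor and neuron genes (y axis), with upward triangles for d16D and downward triangles for d16V, 1 pair of libraries each. All 7 genes lie below 0 at d16V, while at d16D NEUROG2, NEUROD1, NEUROD4 and NHLH2 lie above 0 and the precursor and neuron genes shown lie below it.

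The d16D pair also differed in the cell types its markers show. The 12 neural progenitor genes were lower in V1PAKI d16D in 12 of 12, with summed levels of 575 FPKM against 971 FPKM in Ctrl, and the early neuron genes in 15 of 16, with 188 against 415 FPKM. The doublecortin gene DCX, of migrating young neurons, was at 4.89 against 26.0 FPKM and the tubulin gene TUBB3 at 37.1 against 111 FPKM. Markers of other tissues were higher in V1PAKI d16D: 10 of 10 endoderm and yolk sac genes (summed 2463 against 433 FPKM) and 10 of 10 mesenchyme and mesoderm genes (1138 against 175 FPKM). The 9 of 10 amnion, trophoblast and epithelium genes at 1 FPKM or more were higher too (summed over the list, 240 against 49.5 FPKM). NEUROG2, NEUROD1, NEUROD4 and NHLH2 were thus above their Ctrl level in a library where precursor and neuron genes were below it. The part of these markers in the members' differences was not tested.

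Neurogenins and NEUROD genes also act in the sensory placodes and ganglia. The 10 genes of that list summed to 24.9 FPKM in V1PAKI d16D and to between 6.19 and 9.04 FPKM in the other 9 libraries. SOX10, of neural crest and glia, stood at 10.0 FPKM in V1PAKI d16D against 0.557 FPKM in Ctrl d16D, the sensory neuron factor POU4F1 at 3.38 against 0.503 FPKM and the peripherin gene PRPH at 2.77 against 0.213 FPKM. Of the 6 genes of the list at 1 FPKM or more in this pair, 4 were higher in V1PAKI and 2 were lower. The lower ones were EYA2 (3.30 against 3.73 FPKM) and SIX4 (1.91 against 2.28 FPKM). The part of these genes in the members' levels was not tested.

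At d16V, 63.4% of the 14569 genes that reached 1 FPKM in 1 or both libraries were lower in V1PAKI. Near that share, 8 of 12 progenitor genes (median -0.23 on the log2 scale) and 11 of 16 early neuron genes (median -0.13) were lower. Their sums were 917 FPKM in V1PAKI against 930 FPKM in Ctrl for progenitor genes, and 331 against 325 FPKM for early neuron genes, of which DPYSL3 alone gave 131 and 101 FPKM. Mesenchyme and mesoderm genes summed to 14.1 against 276 FPKM and endoderm and yolk sac genes to 21.4 against 261 FPKM, both lower in V1PAKI, the opposite order to d16D. The 7 members, lower in V1PAKI d16V, summed to 12.1 against 21.8 FPKM, and the part of these markers was not tested. SOX1 itself, the gene of the study's title, was at 7.38 against 18.7 FPKM in this pair and at 10.9 against 32.6 FPKM at d16D. SOX2, another SOX factor of precursors, was at 246 against 206 FPKM at d16V and at 83.8 against 130 FPKM at d16D.

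**Figure D4:**
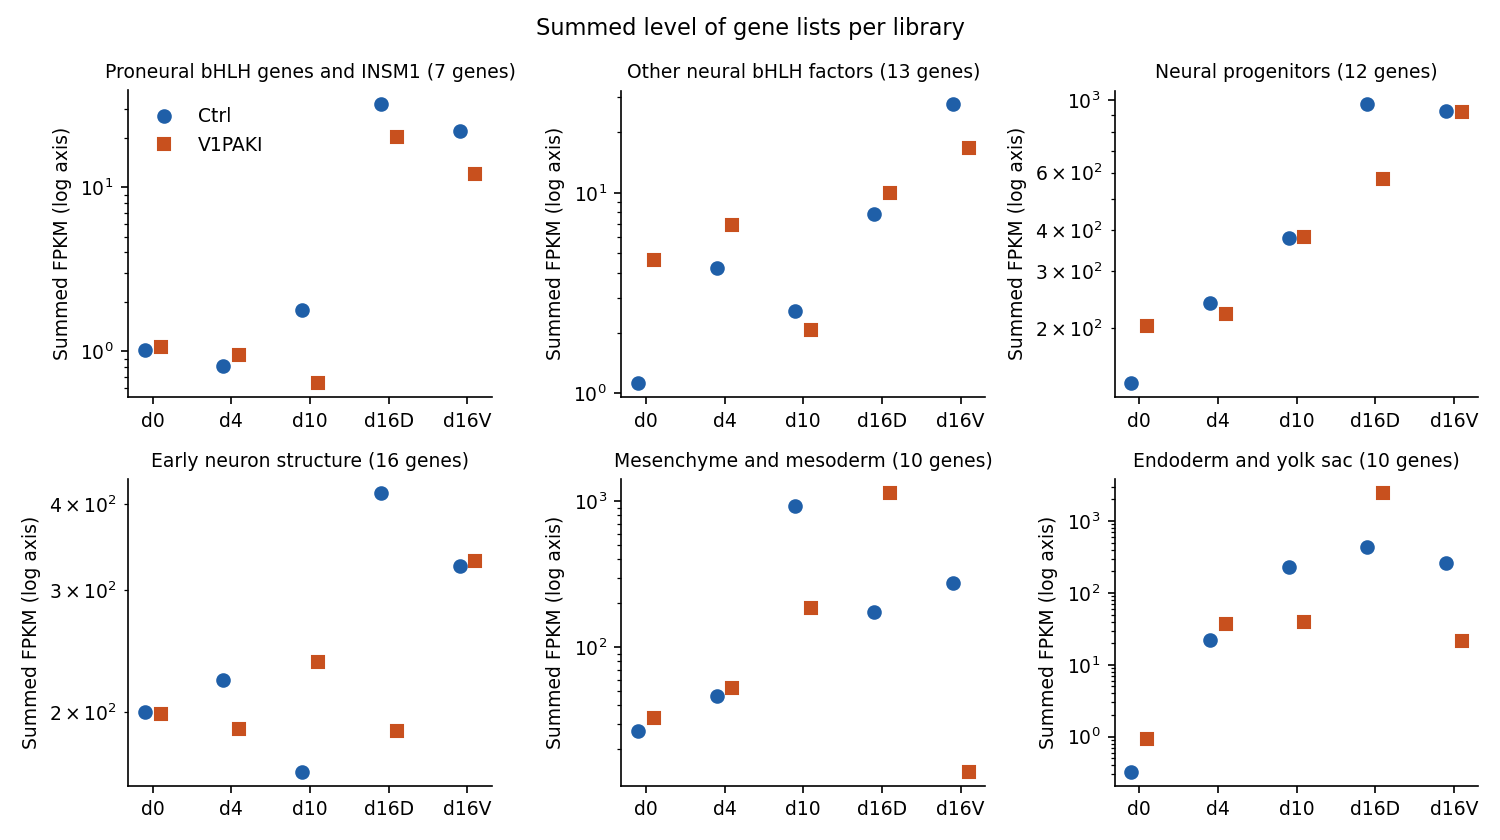
Summed FPKM per library (y axis, log scale) at the 5 stages (x axis) for the 7 genes and 5 other gene lists, circles for Ctrl and squares for V1PAKI. At d16D V1PAKI lies below Ctrl in the precursor and neuron lists and above it in the mesenchyme and endoderm lists, and at d16V it lies below Ctrl in those 2 non-neural lists.

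INSM1 and NEUROD1 are also endocrine genes. The pancreas factor PDX1 was at most 0.166 FPKM, PAX4 at most 0.078 FPKM and glucagon (GCG) at most 0.0202 FPKM in any library, while somatostatin (SST), which neurons make too, reached 23.3 FPKM in V1PAKI d16D. Of 6 tested genes of the endocrine list, 1 rose from d10 to d16V, NKX2-2 (4.46, SE 0.18, adjusted p = 0.000104), which is a factor of ventral neural precursors as well. It passed in 10 of 10 refits with 1 library left out, and reached 1 FPKM in the d16V libraries alone.

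The partners of these factors were present before the factors themselves. Of the E proteins, TCF3 stood between 27.8 and 64.8 FPKM, TCF12 between 8.10 and 21.7 FPKM and TCF4 between 2.68 and 5.52 FPKM over the 10 libraries, and 0 of 3 passed from d10 to either arm by limma. Of the 9 corepressor partners of INSM1, 8 were tested and 0 passed to either arm. KDM1A, the histone demethylase of that complex, stood between 41.2 and 63.5 FPKM throughout, and GFI1 did not exceed 0.121 FPKM.

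On the Notch side, HES5, the repressor that Notch signalling induces against proneural genes, rose with them: by 3.92 to d16D (SE 0.53, adjusted p = 0.0218) and by 3.81 to d16V (SE 0.53, adjusted p = 0.0222). It was the 1 of 11 inhibitors that passed in either arm. Without Ctrl d10 it did not pass (adjusted p = 0.0673 to d16D and 0.101 to d16V), without V1PAKI d16D it did, and it passed in 7 and 6 of 10 refits with 1 library left out. HES5 was at 85.2 FPKM in Ctrl d16D, 19.2 in V1PAKI d16D, 46.4 in Ctrl d16V and 30.9 in V1PAKI d16V, lower in V1PAKI in both pairs as INSM1 was. Of 14 tested Notch ligands, receptors and modulators, the ligand JAG1 rose to d16D (1.40, SE 0.19, adjusted p = 0.0236) and 0 passed to d16V. JAG1 passed in 1 of 10 refits with 1 library left out, the one without Ctrl d10, and had an adjusted p of 0.0504 without V1PAKI d16D. DLL1, the ligand that proneural factors raise, differed by 1.94 (adjusted p = 0.0552) and 1.81 (adjusted p = 0.0647), and stood at 42.2 FPKM in Ctrl d16D, 15.8 in V1PAKI d16D, 24.9 in Ctrl d16V and 22.1 in V1PAKI d16V. The median change of the 14 was 0.66 to d16D and 0.72 to d16V, against 0.03 and 0.04 over all genes.

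Of 17 tested genes known as targets or followers of proneural factors, 1 rose in each arm, TAGLN3, a gene of young neurons, by 3.14 (SE 0.23, adjusted p = 0.00359) to d16D and by 2.79 (SE 0.23, adjusted p = 0.00266) to d16V. TAGLN3 passed without Ctrl d10 and without V1PAKI d16D in both arms, and missed to d16V without Ctrl d16V (adjusted p = 0.0591). The medians of the 17 were 0.85 and 0.92. HES6, which opposes HES1, differed by 1.72 (adjusted p = 0.0646) and 1.81 (adjusted p = 0.0535). INSM2, the relative of INSM1, reached 1 FPKM in a single library, at 3.04 FPKM in Ctrl d16D against 0.471 in V1PAKI d16D. Among 16 early neuron genes, the neurofilament gene NEFM (2.71, SE 0.23, adjusted p = 0.00465), the RNA-binding gene ELAVL3 (2.59, SE 0.41, adjusted p = 0.0395) and the synaptotagmin gene SYT4 (1.68, SE 0.24, adjusted p = 0.0256) rose to d16D. SYT4 (2.97, SE 0.24, adjusted p = 0.00266) and NEFM (1.90, SE 0.23, adjusted p = 0.0132) rose to d16V, and the median of the 16 was 1.22 and 1.19. With 1 library left out, NEFM passed in 10 of 10 refits to d16D and in 6 of 10 to d16V, SYT4 in 4 of 10 and 9 of 10, and ELAVL3 in 1 of 10. Without Ctrl d10, SYT4 and ELAVL3 did not pass to d16D nor NEFM to d16V, and without V1PAKI d16D all of these calls passed.

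Of the glutamatergic cortex list, FEZF2, of forebrain precursors and deep-layer neurons, was the 1 of 4 tested that rose, by 3.41 to d16D (SE 0.23, adjusted p = 0.00359) and by 2.99 to d16V (SE 0.23, adjusted p = 0.00227). Both calls passed in 10 of 10 refits with 1 library left out. TBR1, a marker of young cortical neurons that follows NEUROG2, was at 2.81 FPKM in Ctrl d16D and 0.476 in V1PAKI d16D and at 0.0448 and 0.0318 FPKM at d16V, and the vesicular transporter gene SLC17A6 was at 1.14 and 0.65 FPKM at d16D. Of 7 tested GABAergic genes 0 passed to either arm. The 10 genes of that list summed to 43.6 FPKM in Ctrl d16D, 10.6 in V1PAKI d16D, 25.4 in Ctrl d16V and 16.4 in V1PAKI d16V. Of the 7 at 1 FPKM or more in the d16D pair, 5 were lower in V1PAKI and 2 were higher, against 58.9% of genes lower. At d16V 7 of 7 were lower, against 63.4% of genes. DLX1 was at 16.2 FPKM in Ctrl d16D, 0.882 in V1PAKI d16D, 6.62 in Ctrl d16V and 4.10 in V1PAKI d16V. Between the lines, 0 genes of any of these lists passed in the fit over 5 stages or at day 16 by limma.

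The genes whose values over the 10 libraries were most like the members were chosen by Pearson's r on log2(FPKM + 1), among the 15779 genes tested, and are a description with no test. All points share the rise at day 16, which 10.5% of genes show. For the mean of the 7 standardised profiles they were AL645608.3 (r = 0.983), VCAM1, CX3CL1, LYPD1, SNAP25, AC090181.2, SLC34A3, THSD7A, TPPP3 and AC079781.2 (r = 0.966). Ranked by Spearman's rho instead, the 10 genes most like that mean shared 0 genes with these 10. SNAP25, a synaptic vesicle fusion gene, was also the one most like NHLH1 (r = 0.988), ahead of NR2E1, a forebrain precursor factor. NEUROG1 was most like the dorsal patterning genes EMX2 (r = 0.989), ZIC4 and EMX2OS. NEUROG2 was most like THSD7A (r = 0.983), ALB and ITPKA, and NEUROD1 was most like ITPKA (r = 0.988), AC090181.2 and WNT1. ALB is the albumin gene of yolk sac and liver, at 14.5 FPKM in V1PAKI d16D and 12.0 FPKM in Ctrl d16D. WNT1, of the dorsal midline, was at 8.59 FPKM in V1PAKI d16D and 3.70 in Ctrl d16D. NEUROD4 was most like AC090181.2 (r = 0.996), VCAM1 and AC079781.2. INSM1 was most like AC012313.6 (r = 0.993), AL645608.1 and HES5 (r = 0.986), and NHLH2 had no match above CHST11 (r = 0.907).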

How the data were processed

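Gene expression was analysed in 10 bulk RNA libraries of H9 cells, 1 per line and stage. The authors deposited FPKM values for 42335 gene symbols. Per the submitters' processing notes, the tools were cutadapt 1.18, HISAT2 2.1.0 and Cufflinks, with build GRCh38. Neither the annotation nor any use of strand is stated in the sources used here. NEUROD1 and NHLH2 are among 21438 genes whose values have more than 6 decimals, and how these were formed is not given either. No library pair held identical values.

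Values were analysed as log2(FPKM + 1). A filter kept the 15779 genes that reached 1 FPKM in 2 or more libraries. They were fitted with limma 3.58.1 under R 4.3.3 (eBayes with intensity trend), with stage and line as terms and 4 residual degrees of freedom (7.77 after moderation). A second fit split the line effect into day 16 and earlier stages, with 3 residual degrees of freedom (6.89 after moderation). Tests were two-sided, with Benjamini-Hochberg adjustment over all genes and a threshold of 0.05. The procedure was tested on simulated data. Single-stage differences between the lines have no test. Coordinates came from GENCODE 29, which matched 39994 symbols, and promoters from RefSeq.

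The 7 genes and the 17 other gene lists were chosen with earlier results of these data known. From each list, up to 4 genes with the largest change past the threshold were named, or else the largest changes as values, plus TUBB3, DCX, STMN2, SOX2, PAX6, HES5 and SOX1. Other genes given with values as markers or relatives of the 7 were picked after their values were seen. INS and NEUROD6 were not analysed here, and some genes of the lists are not reported here. Alternatives were the pseudocount, the filter, TPM and median-of-ratios scaling, the intensity trend, a GC and length correction, no block for line, and leaving out each library.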

Additional observations from a re-analysis of the deposited data

Results flagged for a closer look

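For 3 genes the V1PAKI and Ctrl libraries stood in opposite order in the day 16 arms, each in 1 pair of libraries. The difference between the arms was not tested. The share of all genes with an opposite order was not counted, so this number is a description. Of genes at 1 FPKM or more in 1 or both libraries, 58.9% were lower in V1PAKI at d16D and 63.4% at d16V. The log2 difference of V1PAKI minus Ctrl was 0.13 at d16D and -0.58 at d16V for NEUROG2, 0.50 and -0.44 for NEUROD1, and 0.20 and -0.55 for NHLH2. NEUROD4, which stayed under 1 FPKM, stood in the same order as these genes, at 0.32 and -0.20.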

How the results depend on the processing

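Each line had 1 library per stage, so stages were compared within line and lines within stage, and every test had 3 or 4 residual degrees of freedom. Sequencing depth is unknown. Of 507 recomputed member values with a test, 444 kept their direction and side of the threshold, 48 kept the direction but no longer passed, and 15 changed sign. The cause was not tested, except that fewer genes or libraries were used where a filter or a left-out library says so: the filter at 5 FPKM left NHLH1 and INSM1 as the tested members.

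Members called from d10 to d16D (5) numbered 1 with no filter and 1 with the filter at 5 FPKM, and 1 to 5 with 1 library left out. Members called from d10 to d16V (2) numbered 0 with no filter, 1 with the filter at 5 FPKM, and 0 to 2 with 1 library left out. From d16D to d16V (1) they numbered 0 with a pseudocount of 0.1, no filter, the filter at 5 FPKM, TPM, and the GC and length trend removed, and 0 to 1 with 1 library left out. Members lower by at least 1 at d16V (0) numbered 3 with a pseudocount of 0.1 and 1 on TPM. Both counts include NEUROG1, which was under 1 FPKM in both d16V libraries.

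Genes called over all genes were 129 from d0 to d4: 11 with no filter, 59 with the filter at 5 FPKM, 79 on TPM, 225 with the GC and length trend removed, 237 with no block for line, and 0 to 192 with 1 library left out. From d4 to d10 they were 227: 3 with no filter, 607 with the trend removed, 408 with no block, and 0 to 447 with 1 library left out. From d10 to d16D they were 147: 91 with a pseudocount of 0.1, 34 with no filter, 82 with the filter at 5 FPKM, 325 with the trend removed, 244 with no block, and 29 (without Ctrl d10) to 384 (without V1PAKI d16D) with 1 library left out. From d10 to d16V they were 128: 64 with no filter, 277 with no block, and 16 (without Ctrl d16V) to 681 (without Ctrl d16D). From d16D to d16V they were 57: 7 with a pseudocount of 0.1, 2 with the filter at 5 FPKM, 18 on TPM, and 5 (without Ctrl d16V) to 101 (without Ctrl d16D). Between the lines over 5 stages they were 3: 0 with no filter, 0 with the filter at 5 FPKM, 3 without Ctrl d16D and 0 without any other library. Between the lines at day 16 they were 0, with 1 at a pseudocount of 0.1.

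Signs changed for these values. NEUROD1 between the lines at day 16 (0.03) was -0.084 with a pseudocount of 0.1, -0.014 on TPM and -0.44 to 0.50 with 1 library left out. NEUROD1 between the lines over 5 stages (0.02) was -0.10 to 0.14 with 1 library left out, negative without Ctrl d16D or V1PAKI d16D. NEUROG2 between the lines at day 16 (-0.22) was -0.58 to 0.13, positive without Ctrl d16V or V1PAKI d16V. For the day 16 line effect minus the earlier one, NEUROD1 (0.02) was -0.22 with a pseudocount of 0.1, -0.071 on TPM and -0.45 to 0.49 with 1 library left out, and NEUROG2 (-0.17) was -0.52 to 0.19. INSM1 from d16D to d16V (0.32) was -0.093 to 0.73, negative without V1PAKI d16D. TPM moved the median of all genes by 0.145 from d4 to d10, by 0.1 from d10 to d16V, by -0.126 between the lines at d0 and by 0.111 at d10, and median-of-ratios scaling by -0.14 at d0. The 10 genes most like the mean profile were all different with Spearman's rho (0 shared).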
